A study of Macaca mulatta with 22 samples.

Results

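The comparison followed ovulatory follicles of rhesus macaques (Macaca mulatta) over the 12 h in which they ruptured. It set 4 follicles that had ruptured by 36 h after human chorionic gonadotropin (hCG) against 4 follicles taken at 24 h. Each array held the RNA of 1 follicle, so the comparison used 8 of the 22 arrays of the series. The sample titles chose the members: the 24 h follicles carry replicate numbers 1 to 4 and the ruptured ones 5 to 8. Every group came from females that had received a GnRH antagonist (Acyline), which shuts off the pituitary's own gonadotropins. They were also given recombinant human FSH and LH at 30 IU each, begun once estradiol in the blood had reached 100 to 120 pg/ml. A bolus of 1000 IU recombinant hCG, which acts on the LH receptor, set time 0 for the 24 h and both 36 h groups. The other arrays were 6 follicles without hCG (0 h), 4 at 12 h and 4 at 36 h that had not ruptured. Most sample descriptions speak of a developing corpus luteum where the titles say ovulatory follicle, and they are called follicles here. The labels do not say that each follicle came from its own animal, so the p-values rest on how far the sampled follicles varied.

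Ovulation begins when the LH surge, or hCG in its place, raises cyclic AMP in the mural granulosa cells that line the follicle. These cells release EGF-like ligands, and the cumulus cells around the oocyte answer by laying down a hyaluronan matrix. Proteases then thin the follicle wall at the apex, the oocyte leaves with its cumulus, and the wall folds in to become the corpus luteum. Granulosa cells leave the cell cycle, vessels grow in, and cholesterol is turned into progesterone in large amounts.

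Levels are given as log2 of the intensity, so that 1 unit stands for a 2-fold difference, and changes are ruptured 36 h minus 24 h unless said otherwise. Changes carry their standard error (SE) and an adjusted p from limma with Benjamini-Hochberg adjustment over 52766 probe sets, and a probe set with an adjusted p under 0.05 is called. Values per follicle are listed in the order of the replicate numbers. A gene is given by its brightest probe set. Of 99 called genes named by the rule given below, 34 had further probe sets that were not called. In 0 of the named genes were probe sets called in opposite directions. Array medians lay between 26.1 and 26.7 on the intensity scale, and the number of arrays limits the precision. Correlations over all probe sets, a description with no test, were 0.899 to 0.908 between pairs of 24 h follicles, 0.889 to 0.903 between pairs of ruptured ones and 0.876 to 0.891 between the groups. An index of RNA quality, the 3′ minus 5′ signal of control genes, overlapped, at 0.243 to 0.366 at 24 h and 0.297 to 0.355 in ruptured follicles. Of granulosa markers, 7 of 10 were measured, and their summed level was 12.65 to 13.01 at 24 h and 13.12 to 13.69 in ruptured follicles. Of the 7, INHBA alone was called, and the median level of the 7 relative to their 24 h means overlapped, at −0.31 to 0.34 and −0.36 to 1.08. Of the theca and stroma markers 11 of 13 were measured, at 14.36 to 14.54 and 14.33 to 14.72.

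Transcripts that rose were fewer than those that fell, but moved further. Of the probe sets tested, 4911 were called (9.31%), 2323 higher and 2588 lower in ruptured follicles. The changes ran from −4.05 to 5.85. Of the 1860 called with at least a 2-fold change, 1137 were higher and 723 lower. Taken as 14132 named genes, 12.9% were called, 5.69% higher and 7.17% lower. Among these genes, 89 were called at least 4-fold higher and 19 at least 4-fold lower. In 20.5% of the genes the levels of the 4 ruptured and the 4 24 h follicles did not overlap. The genes named for the highest and lowest changes were picked among these, so their lack of overlap is not a result. The median change of all genes was −0.05. In a fit of these 8 arrays alone the count of probe sets was 1271, and more were higher (734) than lower (537). Without 24 h replicate 1 the count of lower ones was 1700. Without 24 h replicate 2 slightly more were called higher (1825) than lower (1788).

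**Figure D1:**
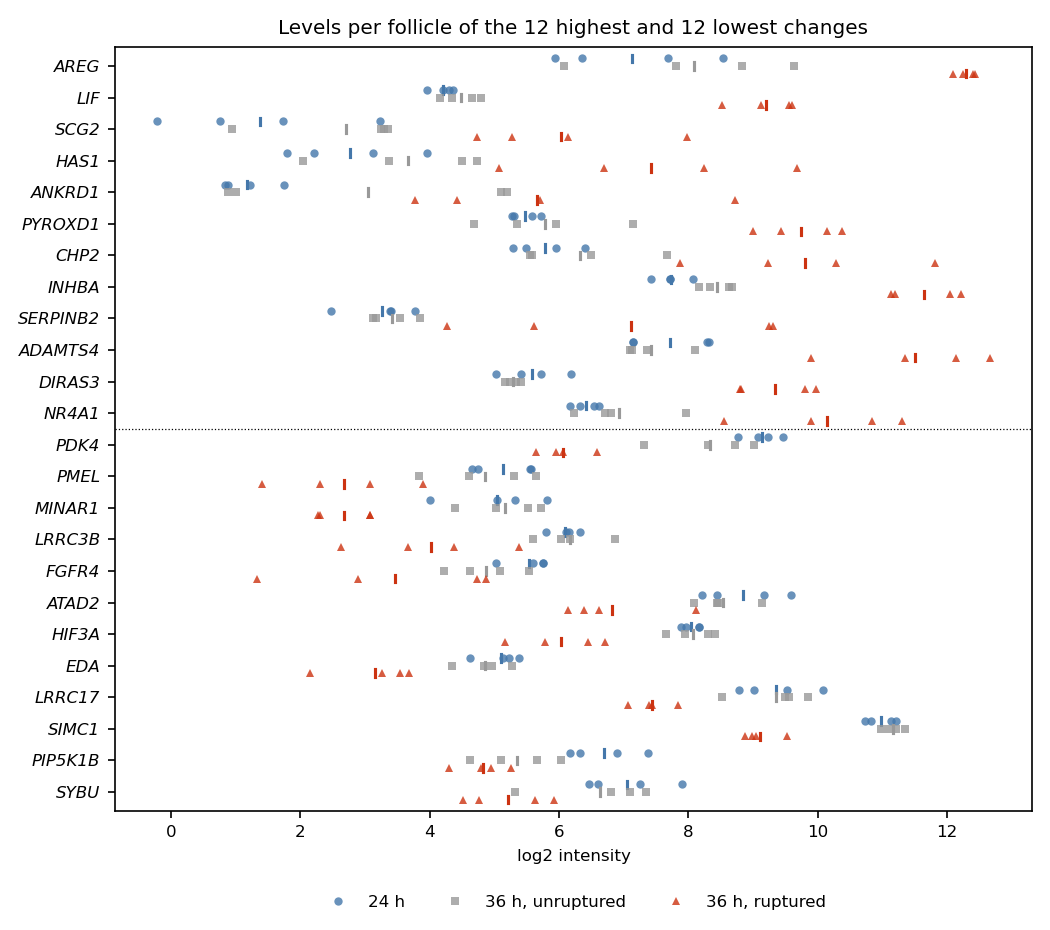
Log2 intensity of the genes at both ends of the change (12 higher above, 12 lower below), 1 symbol per follicle and a short bar at each group's mean, for 24 h (circles), unruptured 36 h (squares) and ruptured 36 h follicles (triangles). The genes were chosen so that the 24 h and ruptured groups do not overlap. Ruptured follicles therefore stood to the right of all 24 h follicles for the upper genes, from AREG (change 5.17) to NR4A1 (3.73). They stood to the left for the lower ones, from PDK4 (−3.07) to SYBU (−1.85).

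The EGF-like ligands AREG and HBEGF were higher in ruptured follicles. AREG (amphiregulin), which relays the ovulatory signal to the cumulus, read 5.94, 8.54, 6.36 and 7.69 at 24 h and 12.41, 12.1, 12.44 and 12.24 after rupture. The 24 h follicles were scattered, while the ruptured ones lay within a narrow band above them all. The change was 5.17 (SE 0.95, 35.9-fold, adjusted p = 0.00186), the highest of the named genes. HBEGF, another ligand of this family, read 4.44 to 5.64 at 24 h and 6.73 to 7.58 after rupture and rose 4.3-fold (2.1, SE 0.28, adjusted p = 0.000163). Of its 2 probe sets, 1 was called. ERBB2, a receptor subunit for these ligands, fell by 0.77 (SE 0.21, adjusted p = 0.0284), and EGFR stood at a change of 0.12 (adjusted p = 0.907). The call of ERBB2 was lost without any of 24 h replicates 1, 2 and 4 or ruptured replicates 5 and 7, with an adjusted p of up to 0.0887. Of the 9 measured ligands and receptors, 2 were called higher and 1 lower, with a median change of −0.01.

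Genes of the hyaluronan matrix rose, 4 of 11 measured and 0 lower, with a median change of 0.55. HAS1, a hyaluronan synthase, read 3.12, 3.96, 2.22 and 1.8 at 24 h and 6.7, 8.24, 9.68 and 5.08 after rupture. The groups did not overlap, which was a condition for naming HAS1 among the highest changes. Its ruptured follicles were widely spread, and the change was 4.65 (SE 0.75, adjusted p = 0.000725). HAS2, the synthase best known from cumulus cells, read 0.34, 4.35, 3.15 and 4.5 at 24 h and 6.51, 6.68, 6.57 and 5.02 after rupture, a change of 3.11 (SE 0.74, adjusted p = 0.0108). The level of 24 h replicate 1 was far below the rest, and ruptured replicate 8 was the lowest of its group for both synthases. Levels this low make the size uncertain: with 16 added to each intensity, the changes were 3.08 for HAS1 and 1.7 for HAS2. TNFAIP6, which links hyaluronan to heavy chains of inter-alpha inhibitor, read 5.54, 6.56, 4.48 and 7.31 at 24 h and 8.89, 8.44, 9.72 and 9.5 after rupture. It rose 8.97-fold (3.17, SE 0.64, adjusted p = 0.00378). PTX3, a pentraxin that ties the matrix together, rose by 2.27 (SE 0.43, adjusted p = 0.0026). VCAN, the proteoglycan versican, stood at 0.53 (adjusted p = 0.16). In the fit of the 8 arrays alone, 1 of these 11 genes was called, and HAS1, HAS2 and PTX3 lost the call.

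NPPC, the peptide whose cyclic GMP signal holds the oocyte in meiotic arrest, moved against its receptor. It read 1.97, 3.73, 1.52 and 1.87 at 24 h and 6.77, 6.04, 4.97 and 6.08 after rupture, a change of 3.69 (SE 0.42, adjusted p = 3.66e-05). With 16 added to the intensities the change was 1.89. NPR2, the receptor, read 7.38, 7.71, 7.77 and 7.48 at 24 h and 6.41, 7.08, 6.94 and 6.83 after rupture and fell by 0.77 (SE 0.16, adjusted p = 0.0039). Neither gene's groups overlapped. These were the called members among 8 measured genes of the arrest peptide and gap junctions. NPR2 lost its call in the fit of the 8 arrays.

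Of 23 measured genes of matrix proteolysis 8 were called higher, 2 lower and 13 were not called, with a median change of 0.6. ADAMTS4, a proteoglycan-cleaving protease, read 7.15, 7.14, 8.29 and 8.32 at 24 h and 11.35, 12.14, 12.67 and 9.89 after rupture, a 13.8-fold rise (3.79, SE 0.46, adjusted p = 5.88e-05). MMP1, interstitial collagenase, read 5.1, 4.77, 7.39 and 7.04 at 24 h and 9.74, 9.11, 10.05 and 10.13 after rupture, a 12.8-fold rise (3.68, SE 0.64, adjusted p = 0.00118). Both genes stood clear of every 24 h follicle, which for ADAMTS4 was a condition of its choice. The urokinase activator of plasminogen, PLAU, and its receptor, PLAUR, rose by 1.35 and 1.36 (adjusted p = 0.00498 and 0.00375). The lysosomal protease CTSL rose by 1.17 (adjusted p = 0.00179) and MMP19 by 0.87 (adjusted p = 0.0106). ADAMTS1, which cuts versican, read 10.1, 10.19, 9.94 and 10.19 at 24 h and 10.87, 11.97, 12.22 and 10.44 after rupture and rose by 1.27 (SE 0.33, adjusted p = 0.0205). The levels of ruptured replicates 5 and 8 lay close to those at 24 h. ADAMTS5 went the other way, from 10.44, 9.84, 9.97 and 9.7 to 8.03, 8.06, 8.33 and 8.72, and fell by 1.7 (SE 0.21, adjusted p = 6.57e-05).

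Some of these calls were lost when any of several follicles was left out. ADAMTS1 lost its call without 24 h replicate 3 or ruptured replicate 6 or 7 (adjusted p up to 0.0767). ADAM12, which rose by 0.83 (adjusted p = 0.0249), lost the call without 24 h replicate 2 or 4 or ruptured replicate 5, 6 or 8 (up to 0.0836). ADAMTS9, which fell by 0.48 (adjusted p = 0.0307), lost the call without 24 h replicate 1, 2 or 3 or ruptured replicate 5, 6 or 7 (up to 0.0912). In the fit of the 8 arrays 4 of the list were higher and 1 lower.

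Of 14 measured protease inhibitors 2 were called higher and 1 lower, with a median change of −0.1. SERPINB2, an inhibitor of plasminogen activators, read 3.39, 3.4, 2.48 and 3.77 at 24 h and 9.31, 5.62, 4.27 and 9.25 after rupture. Ruptured replicates 5 and 8 were far above replicates 6 and 7, which still exceeded every 24 h follicle, and the change was 3.85 (SE 0.8, adjusted p = 0.00439), or 2.75 with 16 added. PI3, the elastase inhibitor elafin, was also highest in ruptured replicates 5 and 8, at 11.19, 7.92, 6 and 9.35 after rupture against 4.62 to 6.12 at 24 h. It rose by 3.33 (SE 0.88, adjusted p = 0.0213) and was not called without 24 h replicate 3 or 4 or ruptured replicate 5 or 8 (up to 0.0807). SERPINH1, a collagen chaperone, fell by 0.66 (adjusted p = 0.00747). None of the 3 was called in the fit of the 8 arrays. The inhibitor TIMP1, at 13.4 and 13.52, had a change of 0.12 (adjusted p = 0.657).

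Of 26 measured collagen and fibrillar matrix genes 0 were called by limma, and FN1, fibronectin, had the smallest p in that list (0.45, adjusted p = 0.133). ITGA2, an integrin subunit that binds collagen, read 5.66, 6.37, 5.76 and 6.34 at 24 h and 8.82, 7.77, 7.59 and 8.35 after rupture, a 4.29-fold rise with no overlap (2.1, SE 0.28, adjusted p = 0.000149). ITGB3, of the vitronectin receptor, rose by 1.32 (adjusted p = 0.000861), but only 1 of its 8 probe sets was called. Of 18 measured laminins and integrins 4 were higher and 1, LAMA2, lower (−0.84, adjusted p = 0.00536). ITGAV, which rose by 0.61 (0.0478), lost the call when any 1 of the 8 replicates was left out (up to 0.12). Of these, 1 was higher in the fit of the 8 arrays.

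Immediate early transcription factors, which cells switch on within minutes of a signal, were called higher in 10 of 14 measured members (71.4%) and lower in 0, with a median change of 1.24. NR4A1, an orphan nuclear receptor induced by LH, read 6.33, 6.62, 6.55 and 6.17 at 24 h and 9.89, 10.84, 11.31 and 8.55 after rupture, a 13.3-fold rise (3.73, SE 0.54, adjusted p = 0.000275). EGR2, a zinc finger factor, read 5.29, 4.97, 5.26 and 5.48 at 24 h and 7.73, 9.01, 9.82 and 6.38 after rupture (2.99, SE 0.58, adjusted p = 0.00306). JUNB, a partner in AP-1, read 6.86, 6.85, 6.43 and 7.12 at 24 h and 9.34, 10.29, 10.93 and 8.34 after rupture (2.91, SE 0.44, adjusted p = 0.00037). In all 3 genes the 24 h follicles were tight, the ruptured ones lay above them, and replicate 7 was the highest and replicate 8 the lowest of the ruptured group. The stress-induced factor ATF3 rose by 2.18 (adjusted p = 0.0136), the antiproliferative BTG2 by 1.79 (0.00584), IER2 by 1.74 (0.000147), FOSL2 by 1.24 (0.00173) and MYC by 1.23 (0.000395).

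The same ordering of follicles held across the list. The median level of the 14 genes, relative to each gene's 24 h mean, was 1.17, 1.65, 2.07 and 0.45 in ruptured replicates 5 to 8, against −0.1 to 0.05 at 24 h and 0.14 to 0.36 in unruptured follicles. Their summed level ran from 12.1 to 13.84 in ruptured follicles and from 11.74 to 11.99 at 24 h. The members FOS (1.19, adjusted p = 0.146), KLF6 (0.1, 0.873), NR4A2 (−0.24, 0.478) and KLF2 (−0.41, 0.339) were not called. KLF4 and JUND, both called higher by limma (adjusted p = 0.0253 and 0.0447), lost the call without any of 24 h replicates 1, 2 and 3 or ruptured replicates 6 and 7, and JUND also without 24 h replicate 4 (up to 0.0929 and 0.15). ATF3 lost the call without ruptured replicate 7 (0.0517). In the fit of the 8 arrays 5 were called, and EGR2, ATF3 and BTG2 were among those lost.

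**Figure D2:**
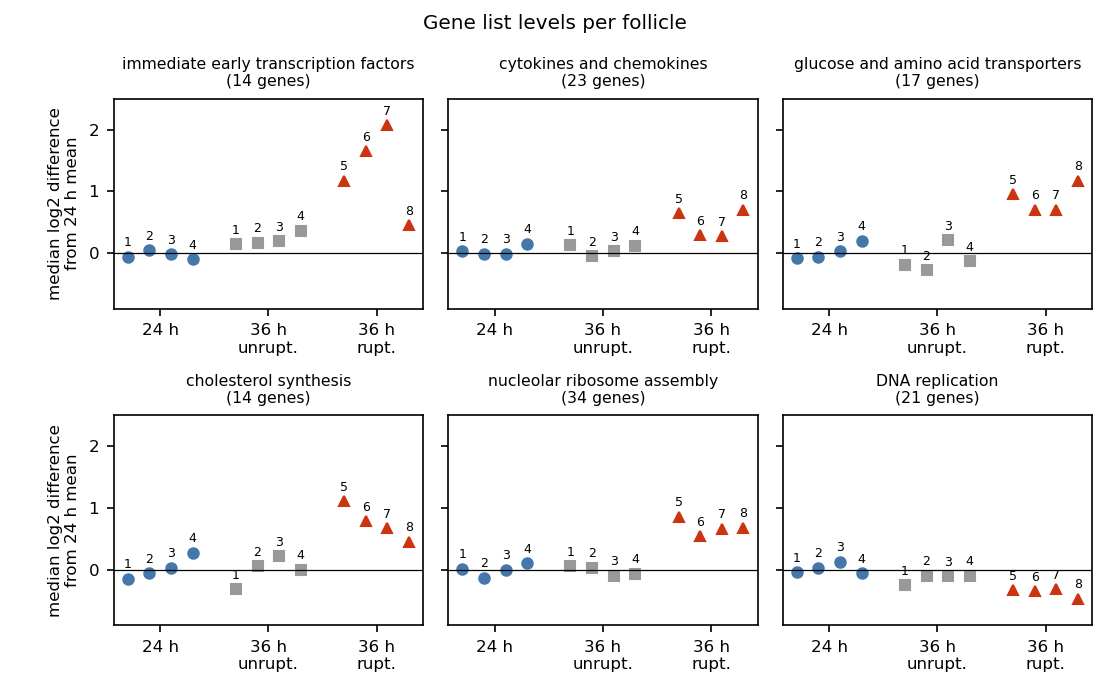
Median level of all measured members of 6 gene lists in each follicle, as the log2 difference from the members' 24 h means, with 1 symbol per follicle and its replicate number above it. Ruptured follicles (triangles) spread from 0.45 to 2.07 for immediate early factors and from 0.54 to 0.86 for nucleolar ribosome assembly, while those for DNA replication lay between −0.47 and −0.32.

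Of 12 measured MAP kinase phosphatases and Sprouty proteins 5 were called higher and 0 lower, and all 12 had a change above 0, with a median of 0.69. SPRY4, a brake on receptor tyrosine kinases, read 5.19, 5.25, 5.78 and 6.2 at 24 h and 8.05, 8.07, 7.5 and 7.97 after rupture, a 4.91-fold rise with no overlap (2.3, SE 0.31, adjusted p = 0.00014). DUSP1 rose by 2.11 (adjusted p = 0.000936) and DUSP14 by 1.35 (0.000167). DUSP5 read 8.34, 7.89, 5.25 and 6.43 after rupture against 2.67 to 4.68 at 24 h (3.16, SE 0.93, adjusted p = 0.0374), and the change was 2.25 with 16 added. Its call was lost without 24 h replicate 1, 2 or 3 or ruptured replicate 5 or 6 (up to 0.12), and with the RNA quality index as a covariate. SPRED2 rose by 0.77 (adjusted p = 0.0174) and lost its call without 24 h replicate 2 or ruptured replicate 5 or 8 (up to 0.0597). The list's count was 3 without 24 h replicate 2 or ruptured replicate 5 and in the fit of the 8 arrays.

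Transcription factors of luteinization were called higher in 3 of 12 and lower in 0. RUNX1, needed for ovulatory gene expression in granulosa cells, read 7.25, 7.95, 7.44 and 7.93 at 24 h and 9.1, 9.91, 9.35 and 9.16 after rupture (1.74, SE 0.25, adjusted p = 0.000295). CREM, a factor of the cyclic AMP response whose short form is a repressor, read 8.17, 8.59, 8.46 and 8.59 at 24 h and 10.47, 10.77, 11.5 and 9.21 after rupture (2.03, SE 0.33, adjusted p = 0.000677). CEBPB, required for luteinization in mice, rose by 1.5 (SE 0.22, adjusted p = 0.000275). None of these 3 genes overlapped between the groups, which also held for 20.5% of all genes. Ruptured replicate 8 again had the lowest CREM. Of the 7 probe sets of RUNX1, 3 were called. CREM and RGS16, a regulator of G protein signalling (1.34, adjusted p = 0.00202), were the called members among 13 genes of cyclic AMP feedback. They made up 15.4% of that list, near the 12.9% over all genes. CREM lost its call in the fit of the 8 arrays. The nuclear receptor NR5A2 stood at 1.54 (adjusted p = 0.064).

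Of 23 measured cytokines, chemokines and receptors 5 were called higher and 0 lower, with a median change of 0.42. LIF, an interleukin-6 family cytokine, read 4.37, 3.96, 4.21 and 4.3 at 24 h and 9.13, 9.6, 9.55 and 8.52 after rupture. Both groups were tight, and the rise was 31.8-fold (4.99, SE 0.55, adjusted p = 2.95e-05). The 24 h level lay under the arrays' median of 4.73, and the change was 4.13 with 16 and 2.99 with 64 added to the intensities. CCL2, which attracts monocytes, read 6.76, 5.6, 5.7 and 6.96 at 24 h and 9.37, 9.13, 9.27 and 9.24 after rupture, a 7.99-fold rise (3, SE 0.45, adjusted p = 0.000375). IL6 rose by 2.34 (adjusted p = 0.00726), the receptor antagonist IL1RN by 1.77 (0.00227) and the shared receptor chain IL6ST by 1.4 (0.0156). CXCL8 stood at 1.41 (adjusted p = 0.0939) and IL1B at 0.72 (0.0799). IL6ST lost its call without ruptured replicate 5 (0.0621), and IL6 in the fit of the 8 arrays. With 16 or 64 added to the intensities, the list's count was 8. Macrophage and monocyte markers were called in 0 of 14, at a summed level of 11.84 to 12.9 at 24 h and 11.63 to 12.37 after rupture. Lymphocyte markers were called in 0 of 9, at 10.56 to 11.36 and 10.16 to 10.68. In a sample of whole follicles, fewer cells of a type and less RNA per cell cannot be told apart.

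Of 20 measured genes of apoptosis and survival 6 were called higher and 0 lower, with a median change of 0.39. BIRC3, an inhibitor of apoptosis and target of NF-kappa-B, read 4.98, 4.91, 3.79 and 5.63 at 24 h and 10.11, 7.74, 7.75 and 8.39 after rupture, a 12.7-fold rise (3.67, SE 0.46, adjusted p = 9.03e-05), or a change of 3.06 with 16 added. TNFRSF12A, the receptor of TWEAK, read 7.1, 7.02, 7.34 and 8.52 at 24 h and 10.85, 10.48, 10.17 and 10.6 after rupture, an 8.16-fold rise (3.03, SE 0.4, adjusted p = 0.000135). Neither gene overlapped between the groups. The proapoptotic BAK1 rose by 0.91 (adjusted p = 0.00375). PMAIP1, also proapoptotic, rose by 1.53 (0.0209) and was not called without 24 h replicate 2 or 4 or ruptured replicate 8 (up to 0.0707). CFLAR rose by 0.96 (0.0207) and lost the call without 24 h replicate 1 or 4 or ruptured replicate 5 or 8 (up to 0.0788). BIRC2 rose by 0.32 (0.0229) and lost the call without 24 h replicate 1 or 2 or ruptured replicate 5 (up to 0.076). The list's count was 10 with 16 or 64 added, with the brighter probe sets alone and with a trended, robust prior, and 2 in the fit of the 8 arrays.

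Tissue factor, the starter of coagulation, was among the genes that rose. F3 read 8.44, 9, 8.83 and 8.63 at 24 h and 11.73, 11.86, 11.09 and 11.6 after rupture, a 7.19-fold rise with tight, separate groups (2.85, SE 0.48, adjusted p = 0.000898). CD55, which protects cells from complement, rose by 1.41 (adjusted p = 0.00302, with 3 of its 6 probe sets called), and the anticoagulant receptor THBD by 0.63 (0.00749). CFI, a complement protease, fell by 0.59 (0.024) and was not called without 24 h replicate 2, 3 or 4 or ruptured replicate 5 or 8 (up to 0.0762). These were the 4 called of 21 measured complement and coagulation genes (19%). In the fit of the 8 arrays CD55, THBD and CFI lost the call. In the interferon list 2 of 18 were called (11.1%), under the 12.9% over all genes. ISG20 rose by 1.63 (0.0129) and lost its call without ruptured replicate 7 (0.0501). OAS1 rose by 1.06 (0.0209) and lost the call without 24 h replicate 1 or ruptured replicate 6 or 7 (up to 0.0775), and its level in ruptured replicate 8, 8.4, lay within those at 24 h.

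The activin subunit INHBA and the activin-binding protein FSTL3 rose. INHBA, which encodes the beta-A subunit of activin A and inhibin A, read 7.43, 8.08, 7.72 and 7.72 at 24 h and 12.05, 11.13, 12.21 and 11.2 after rupture. The groups were far apart, at a 15-fold change (3.91, SE 0.46, adjusted p = 4.11e-05), and both of its probe sets were called. FSTL3, which binds and blocks activin, read 7.26, 7.23, 7.01 and 7.56 at 24 h and 9.43, 9.3, 8.63 and 9.11 after rupture (1.85, SE 0.2, adjusted p = 2.6e-05). The related binding protein FST stood at 1.66 (adjusted p = 0.0817) and INHA, the alpha subunit of inhibin, at 1.15 (0.252). Of 13 measured genes of this system 2 were higher and 1 lower. The lower one, the receptor ACVR1 (−0.61, adjusted p = 0.0429), was not called without 24 h replicate 1, 2 or 3 or ruptured replicate 5, 6 or 7 (up to 0.139).

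BMP and TGF-beta genes were called in both directions, 4 higher and 2 lower of 20. BMP2 read 5.63, 6.28, 6.22 and 6.53 at 24 h and 9.14, 7.31, 7.62 and 7.82 after rupture (1.81, SE 0.32, adjusted p = 0.00148). SMAD6, an inhibitor of BMP signalling, fell from 6.93, 7.48, 7.45 and 7.63 to 5.87, 5.52, 5.33 and 6.49 (−1.57, SE 0.22, adjusted p = 0.000227), though only 1 of its 2 probe sets was called. Neither overlapped between the groups. TGFB3 rose by 1.2 (adjusted p = 0.00921) and the receptor TGFBR1 by 0.69 (0.0008), while TGFBR2 fell by 0.47 (0.0101). ID4 rose by 1.17 (0.0323) and was not called without 24 h replicate 1 or 3 or ruptured replicate 5, 6 or 7 (up to 0.0989). BMP2 and TGFBR2 lost theirs in the fit of the 8 arrays.

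Of 18 measured WNT genes 4 were called lower and 0 higher, with a median change of −0.4. FZD7, a WNT receptor, read 9.69, 9.96, 9.66 and 9.64 at 24 h and 8.12, 7.61, 6.92 and 9.01 after rupture and was 3.53-fold lower (−1.82, SE 0.36, adjusted p = 0.00337). AXIN2, a target and brake of the pathway, fell from 7.44, 7.29, 7.02 and 7.11 to 6.1, 5.74, 5.91 and 6.46 (−1.17, SE 0.16, adjusted p = 0.000217). The effector TCF7L2 fell by 0.98 (adjusted p = 0.0152) and lost its call without 24 h replicate 1 or ruptured replicate 5 (up to 0.0546). FZD1 fell by 0.66 (0.0141) and lost the call without ruptured replicate 7 (0.053). AXIN2 alone of these was called in the fit of the 8 arrays.

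Growth factors outside these families were called in 10.5% of the list, under the 12.9% over all genes. PDGFA rose by 0.99 (adjusted p = 0.00336) and FGFR4 fell by 2.07 (0.0203), the called members among 19 IGF, FGF and PDGF genes. FGFR4 read 4.88, 1.33, 2.89 and 4.74 after rupture against 5.03 to 5.75 at 24 h, and was not called without 24 h replicate 1 or 3 or ruptured replicate 7 (up to 0.0633). With 16 added its change was −1.04, and 1 of its 3 probe sets was called. Neither PDGFA nor FGFR4 was called in the fit of the 8 arrays. Of 16 measured angiogenic ligands and receptors, FGF2 (1.9, adjusted p = 0.00379) and THBS2, an inhibitor of vessel growth (1, adjusted p = 0.00163), were called higher. These made up 12.5% of that list, near the share over all genes. VEGFA was not analysed here.

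An enzyme and an electron carrier of progesterone synthesis rose, while STAR was not called. HSD3B2, which turns pregnenolone into progesterone, read 8.52, 9.93, 10.3 and 10.57 at 24 h and 12.47, 11.99, 11.88 and 12.01 after rupture. Every ruptured follicle lay above every 24 h one, and the change was 4.79-fold (2.26, SE 0.42, adjusted p = 0.00203). Whether its probe set tells HSD3B2 from its close relative HSD3B1 was not tested. FDX1, ferredoxin, which passes electrons to the cholesterol side-chain cleavage enzyme, rose from 11.36, 11.48, 11.56 and 11.64 to 12.57, 12.54, 12.61 and 12.69 (1.09, SE 0.2, adjusted p = 0.00164). STAR, which carries cholesterol into mitochondria, was high in both groups, at 13.1 to 13.24 and 13.31 to 13.39, with a change of 0.17 (SE 0.15, adjusted p = 0.579). These 2 were the called members among 9 measured genes of progesterone synthesis, which had a median change of 0.17. With the brighter probe sets alone, or those at or above the array median in at least 4 arrays, the count was 4. CYP11A1 was not analysed here.

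The androgen and estrogen enzymes were called by limma in 0 of 5 measured genes. CYP17A1, which makes androgens, read 7.51, 7.26, 7.98 and 8.55 at 24 h and 6.83, 7.1, 7.75 and 7.28 after rupture (−0.58, SE 0.41, adjusted p = 0.463). CYP19A1, aromatase, read 5.76, 6.9, 6.87 and 8.31 at 24 h and 7.47, 6.74, 9.11 and 6.31 after rupture (0.45, SE 0.66, adjusted p = 0.768). Without ruptured replicate 7 its change was −0.12. Both enzymes overlapped between the groups, and both had been far higher without hCG, at 12.05 and 11.34. HSD17B7 had the smallest p of the list (0.83, adjusted p = 0.183). The progesterone receptor PGR stood at 0.27 (SE 0.43, adjusted p = 0.79), and 0 of 6 steroid receptors were called.

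Cholesterol synthesis, which feeds steroid output, was called higher in 6 of 14 measured genes and lower in 0, with a median change of 0.77. INSIG1, a sterol-sensing brake on the pathway, read 8.55, 8.72, 8.68 and 7.89 at 24 h and 11.06, 10.81, 11.22 and 9.47 after rupture (2.18, SE 0.36, adjusted p = 0.000859). SQLE, squalene epoxidase, read 7.09, 7.82, 7.67 and 7.88 at 24 h and 9.48, 9.54, 9.09 and 8.57 after rupture (1.55, SE 0.32, adjusted p = 0.00471). Neither overlapped, and ruptured replicate 8 was the lowest of its group in both. MVD rose by 1.42 (adjusted p = 0.00432), IDI1 by 1.41 (0.0301), CYP51A1 by 1.24 (0.0184) and SREBF2, the pathway's transcription factor, by 0.59 (0.0469). The last 3 lost their calls without 24 h replicate 1 or 2 or ruptured replicate 5, IDI1 and SREBF2 also without 24 h replicate 3 or ruptured replicate 6 or 7 (up to 0.0886, 0.0678 and 0.153). The list's count was then 3 without 24 h replicate 1, 24 h replicate 2 or ruptured replicate 5, and 3 in the fit of the 8 arrays. NPC1, which moves cholesterol out of lysosomes, rose by 1.24 (SE 0.2, adjusted p = 0.000595), the only call among 6 measured genes of uptake and storage. In fatty acid metabolism, SREBF1 (0.98, adjusted p = 0.0014), FASN (0.75, 0.00761) and ACLY (0.53, 0.0151) rose and LPL fell (−0.96, 0.00174), of 22 measured. The called share was 18.2% here and 16.7% for uptake and storage, against 12.9% over all genes. ACLY lost its call without 24 h replicate 2 (0.0576), and all 4 in the fit of the 8 arrays.

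**Figure D3:**
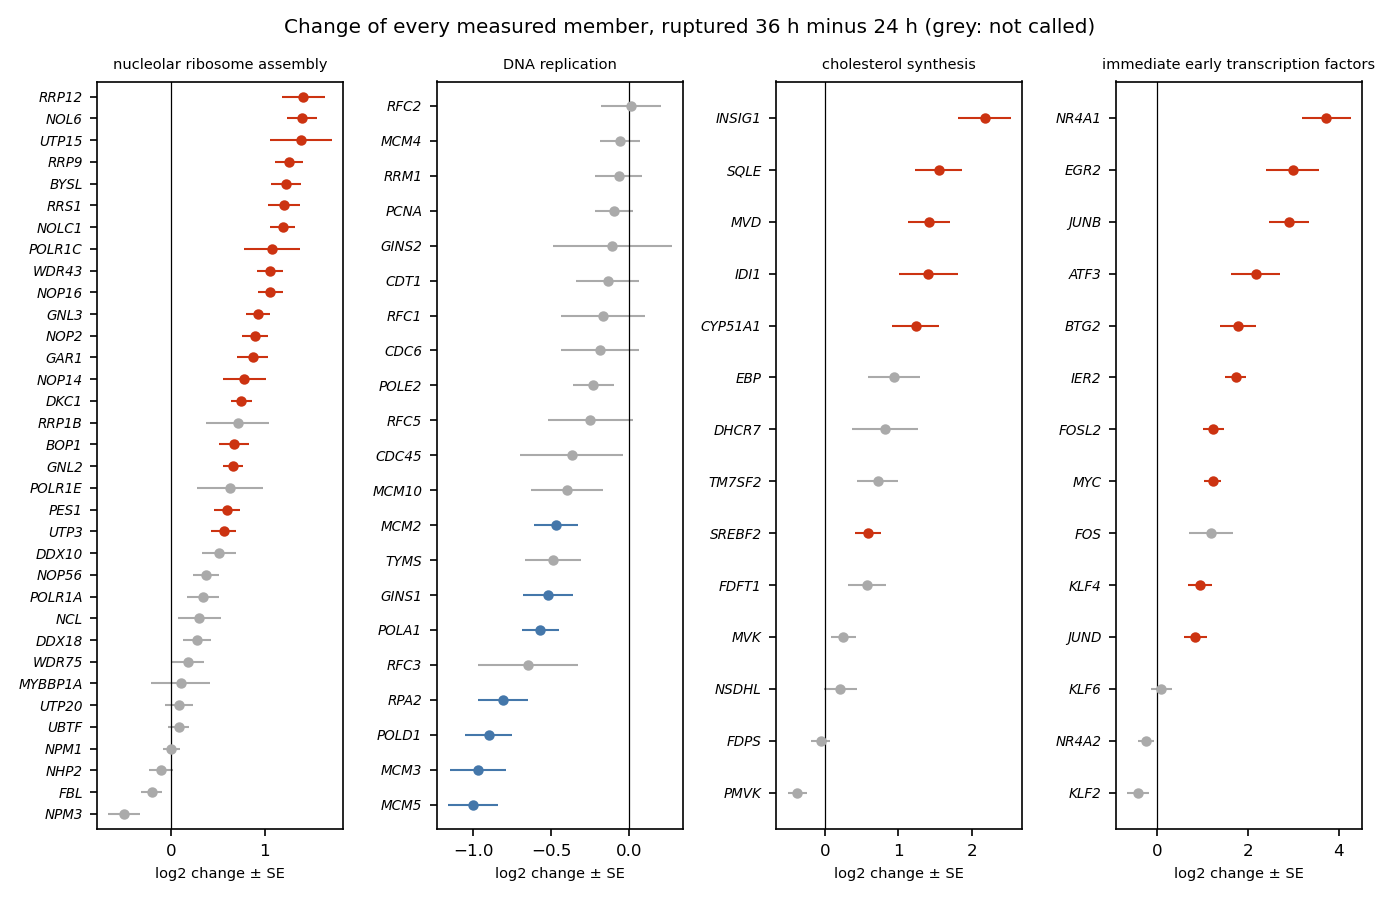
Change (ruptured 36 h minus 24 h, log2, with SE bars) of every measured member of 4 gene lists, in red where called higher, in blue where called lower and in grey where not called. The called members numbered 19 of 34 for nucleolar ribosome assembly, 7 of 21 for DNA replication (all lower), 6 of 14 for cholesterol synthesis and 10 of 14 for immediate early factors.

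The list of glucose and amino acid transporters, which also held phosphate and lactate carriers, had 9 of 17 measured members called higher and 0 lower, with a median change of 0.87. SLC20A1, a phosphate transporter, read 7.27, 7.51, 7.31 and 7.63 at 24 h and 10.03, 10.25, 9.62 and 9.49 after rupture. It rose 5.34-fold (2.42, SE 0.19) with an adjusted p of 1.14e-06. SLC2A3, the high-affinity glucose transporter GLUT3, read 6.08, 6.18, 6.76 and 6.46 at 24 h and 7.7, 8.03, 8.41 and 7.91 after rupture (1.64, SE 0.21, adjusted p = 0.000109). Both were separate between the groups. The lactate exporter SLC16A3 rose by 1.65 (adjusted p = 0.000767), SLC7A8 by 1.54 (0.0051), SLC6A6 by 1.51 (0.015), SLC2A1 by 1 (0.0149) and SLC16A1 by 0.87 (0.0067). SLC7A5, a carrier of large amino acids, rose by 2.52 (0.0233) from levels of 1.09 to 4.01, and by 1.14 with 16 added. It was not called without 24 h replicate 1 or 2 or ruptured replicate 6 or 7 (up to 0.0883), nor was SLC6A6 without 24 h replicate 3 (0.0538). The count was 5 in the fit of the 8 arrays and also 5 with each gene's dimmest probe set.

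Genes of hypoxia and glycolysis, which include SLC2A3 and SLC2A1, rose in 7 of 18 and fell in 1. HK2, hexokinase, read 5.91, 6.44, 6.32 and 6.17 at 24 h and 8.43, 7.54, 8.04 and 7.79 after rupture (1.74, SE 0.27, adjusted p = 0.000475). ALDOC rose by 1.51 (adjusted p = 0.00671), ENO2 by 1.22 (7.94e-05), PFKP by 0.82 (0.0191) and LDHA, which makes lactate, by 0.67 (0.00957). GPI fell by 0.54 (0.0428). PFKP was not called without 24 h replicate 1 or 4 or ruptured replicate 8 (up to 0.0673), and GPI without any replicate but ruptured replicate 6 (up to 0.129). Of the list, 4 were higher in the fit of the 8 arrays. PDK4, the kinase that shuts pyruvate out of mitochondrial oxidation, had the lowest change of the named genes. It read 9.08, 9.24, 9.47 and 8.77 at 24 h and 6.59, 5.65, 5.95 and 6.06 after rupture, and was 8.42-fold lower (−3.07, SE 0.34, adjusted p = 2.95e-05). HIF3A, an inhibitory hypoxia factor, fell from 7.97, 8.16, 7.89 and 8.17 to 5.16, 6.45, 5.79 and 6.72 (−2.02, SE 0.3, adjusted p = 0.000321). Neither gene's groups overlapped, a condition of their choice, and 3 of the 5 probe sets of HIF3A were called. Of 28 oxidative phosphorylation genes, NDUFA8 alone was called (−0.39, adjusted p = 0.0285), and it lost the call without 24 h replicate 1, 2 or 3 or ruptured replicate 5 or 6 (up to 0.0857).

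Factors that build ribosomes in the nucleolus were called higher in 19 of 34 measured members (55.9%) and lower in 0, with a median change of 0.67. NOL6, which processes ribosomal RNA, read 6.01, 6.16, 6.01 and 6.38 at 24 h and 7.75, 7.4, 7.49 and 7.54 after rupture (1.4, SE 0.16, adjusted p = 3.66e-05). RRP12, needed to export both ribosomal subunits, read 6.29, 5.84, 6.06 and 6.27 at 24 h and 7.63, 7.48, 7.23 and 7.78 after rupture (1.41, SE 0.23, adjusted p = 0.000777). The spread within each group was small beside the shift. Of their probe sets, 2 of 4 were called for NOL6 and 1 of 2 for RRP12. RRP9 (1.26), BYSL (1.23), RRS1 (1.21), NOLC1 (1.19), WDR43 (1.06) and NOP16 (1.06) rose by similar amounts. The median of the list in the 4 ruptured follicles was 0.86, 0.54, 0.66 and 0.68 above the 24 h means. POLR1C rose by 1.08 (adjusted p = 0.0273) and was not called without 24 h replicate 1, 2 or 3 or ruptured replicate 5, 6 or 7 (up to 0.0764), and NOP14 (0.78, 0.0411) without any replicate but ruptured replicate 8 (up to 0.128). The count was 11 in the fit of the 8 arrays.

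Protein synthesis and folding were touched in part. Of 13 translation factors and tRNA synthetases, EIF3B (0.71, adjusted p = 0.00629), EIF3J (0.65, 0.0021) and EIF2S1 (0.53, 0.0225) rose. EIF2S1 was not called without 24 h replicate 1 or 2 or ruptured replicate 5 or 7 (up to 0.0736), and none of the 3 was in the fit of the 8 arrays. Heat shock proteins and chaperones rose in 9 of 23 and fell in 0, with a median change of 0.22. HSPH1 read 9.21, 8.83, 9.15 and 9.3 at 24 h and 10.7, 10.44, 11.31 and 9.69 after rupture (1.41, SE 0.27, adjusted p = 0.00247). HSPA4L rose by 1.47 (adjusted p = 0.0158) and lost its call without ruptured replicate 7 (0.0576). CHORDC1 lost the call without ruptured replicate 5 (0.0538), HSP90AA1 without 24 h replicate 1 or 2 or ruptured replicate 6 (up to 0.0728), HSPB8 without 24 h replicate 1 or ruptured replicate 5 or 7 (up to 0.0757) and DNAJB1 without any replicate but ruptured replicate 8 (up to 0.163). The co-chaperone BAG3, which rose by 1.22 (0.000501), was the only one of the 9 called in the fit of the 8 arrays. Of the unfolded protein response ATF4 (0.62, 0.00125), XBP1 (0.6, 0.00231) and HSP90B1 (0.62, 0.00308) rose, of 14 measured. TRIB3 rose by 2.98 (0.0193), by 1.39 with 16 added, and was not called without 24 h replicate 2 or 3 or ruptured replicate 5 (up to 0.0726). None of those 4 was called in the fit of the 8 arrays. In the proteasome 0 of 21 were called by limma, with PSMD11 at the smallest p (0.27, adjusted p = 0.135).

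Of 21 measured DNA replication genes, 7 were called lower and 0 higher, 1 had a change above 0, and the median was −0.37. MCM5, a subunit of the replicative helicase, read 7.63, 7.62, 7.71 and 7.34 at 24 h and 6.66, 6.31, 6.69 and 6.65 after rupture (−1, SE 0.16, adjusted p = 0.000589). MCM3, another subunit, fell from 7.4, 7.48, 7.58 and 7.65 to 6.5, 6.59, 6.73 and 6.4 (−0.97, SE 0.18, adjusted p = 0.00193). Neither overlapped between the groups. The polymerase subunits POLD1 (−0.9, adjusted p = 0.000812) and POLA1 (−0.57, 0.00478) and the single-strand binder RPA2 (−0.81, 0.00318) fell too. GINS1 (−0.52, 0.0473) lost its call without any of the 8 replicates, and MCM2 (−0.47, 0.0465) without any but ruptured replicate 8 (up to 0.112 and 0.136). The count was 4 in the fit of the 8 arrays. Cell cycle genes were called by limma in 0 of 18. The proliferation marker MKI67 read 6.44, 6.23, 6 and 5.83 at 24 h and 6.97, 6.25, 5.5 and 5.98 after rupture (0.05, SE 0.33, adjusted p = 0.96). Its change was −0.05 without 24 h replicate 4 and −0.22 without ruptured replicate 5. CCNE2 had the smallest p of that list (−0.51, adjusted p = 0.166). Among 12 cell cycle inhibitors CDKN1B (−0.74, 0.0108) and CDKN2C (−0.73, 0.00495) fell and BTG2 rose. GADD45B also rose (1.45, 0.0354), and was not called without 24 h replicate 1, 3 or 4 or ruptured replicate 6 or 7 (up to 0.125). None of these inhibitors was called in the fit of the 8 arrays.

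**Figure D4:**
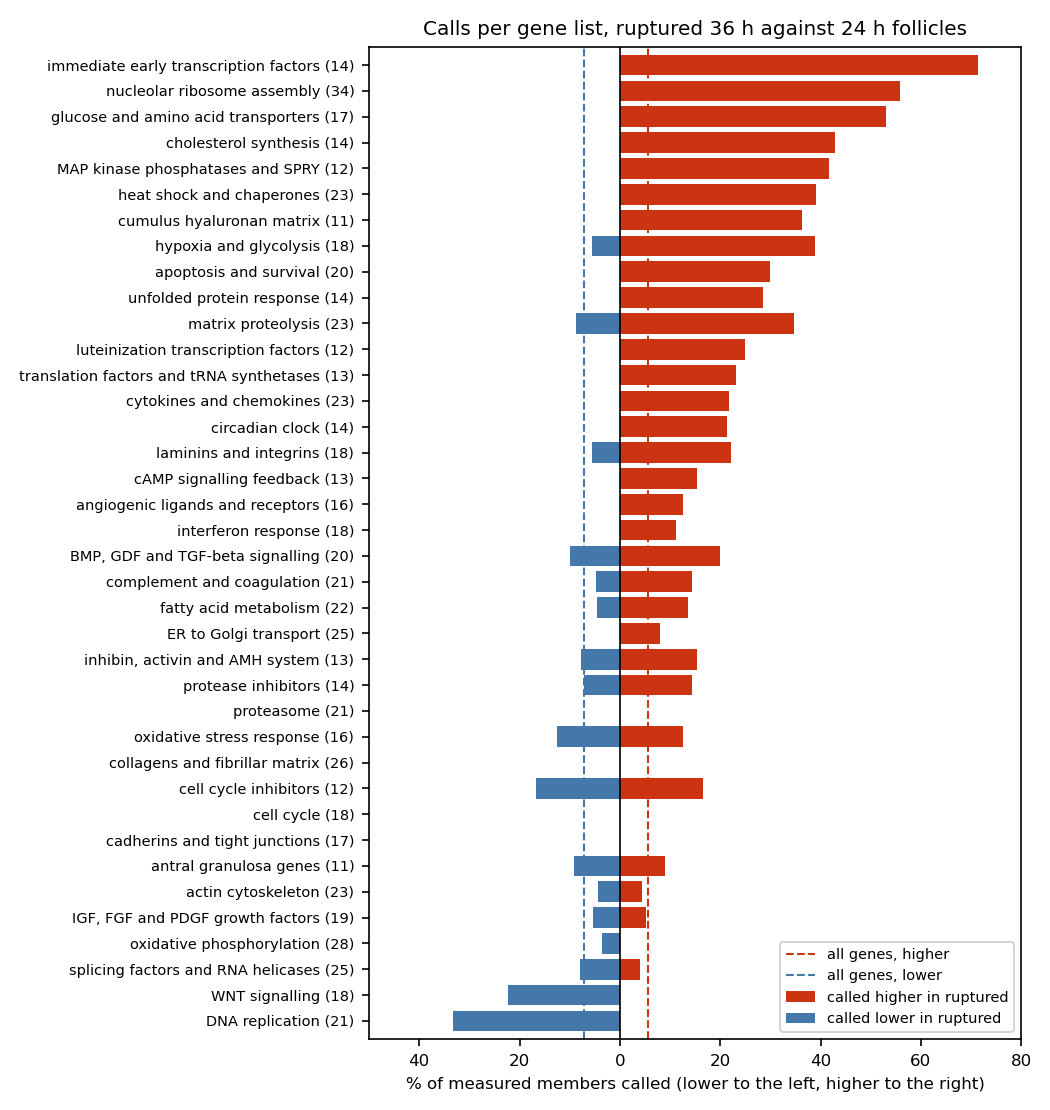
Share of measured members called higher (right) and lower (left) in ruptured follicles for the 38 pathway lists with at least 10 measured genes, with the number measured in parentheses and dashed lines at the shares over all genes, 5.69% higher and 7.17% lower. Immediate early factors had the largest share called higher among these lists (71.4%) and DNA replication the largest called lower (33.3%).

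Glucocorticoid-responsive genes went separate ways. ZBTB16, a zinc finger factor strongly induced by glucocorticoids and progestins, fell from 9.63, 9.59, 9.46 and 9.14 to 7.59, 7.85, 7.82 and 8.11 (−1.61, SE 0.25, adjusted p = 0.000545). TSC22D3 fell by 0.79 (adjusted p = 0.00539), and lost its call in the fit of the 8 arrays. SGK1 rose by 0.82 (0.0108). The other 5 of 8 measured genes were not called. CAT, catalase, fell from 6.1, 6.32, 6.16 and 6.28 to 4.56, 4.54, 3.58 and 4.8 (−1.85, SE 0.24, adjusted p = 0.000135), though 1 of its 2 probe sets was called. In the same oxidative stress list of 16, SRXN1 (1.16, 0.0084) and GSTA1 (1.44, 0.033) rose and GSTA4 (−0.63, 0.0216) fell. GSTA1 lost its call without 24 h replicate 1 or any ruptured replicate (up to 0.109), and GSTA4 without 24 h replicate 1 or 2 or ruptured replicate 5 (up to 0.0811). SRXN1, GSTA1 and GSTA4 were not called in the fit of the 8 arrays, while CAT was. Among 14 clock genes the repressors BHLHE40 (1.86, 0.000438) and NFIL3 (1.35, 0.00178), and ARNTL2 (1.2, 0.00816), were called higher, of which BHLHE40 kept the call in the fit of the 8 arrays.

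Several of the furthest moving genes belonged to none of the lists. DIRAS3, a growth-suppressing small GTPase, read 5.73, 5.42, 5.02 and 6.19 at 24 h and 9.81, 8.81, 9.97 and 8.8 after rupture (3.76, SE 0.35, adjusted p = 6.17e-06). SCG2, secretogranin of hormone granules, read 1.73, 0.76, −0.22 and 3.23 at 24 h and 6.14, 4.74, 7.98 and 5.27 after rupture (4.66, SE 0.94, adjusted p = 0.0037). ANKRD1, a target of YAP, read 8.72, 5.71, 3.78 and 4.42 after rupture against 0.84 to 1.75 at 24 h (4.48, SE 1.25, adjusted p = 0.0288). With 16 added the changes of SCG2 and ANKRD1 were 2.13 and 2.05. The call of ANKRD1 was lost without 24 h replicate 1, 2 or 3 or ruptured replicate 5 or 6 (up to 0.109), in the fit of the 8 arrays, and with 64 added. CHP2, a calcineurin-like protein, was 16.2-fold higher (4.01, SE 0.63, adjusted p = 0.000549) and PYROXD1, an oxidoreductase, 19.2-fold (4.26, SE 0.5, adjusted p = 4.34e-05). For both, 1 probe set was called, of 2 and of 3.

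Among the genes that fell furthest, SIMC1, which binds SUMO, read 11.21, 11.13, 10.83 and 10.73 at 24 h and 8.87, 9.05, 9.52 and 8.98 after rupture (−1.87, SE 0.21, adjusted p = 3.46e-05). LRRC17, a leucine-rich repeat protein, fell from 9.53, 9.01, 10.09 and 8.79 to 7.07, 7.39, 7.84 and 7.44 (−1.92, SE 0.28, adjusted p = 0.000318). ATAD2, a chromatin ATPase, fell by 2.04 (adjusted p = 0.00286) with all 4 of its probe sets called. EDA (−1.94), PMEL (−2.45), MINAR1 (−2.36) and LRRC3B (−2.08) fell to low levels, of 5.38 and below, where sizes are uncertain. With 16 added their changes were −0.99, −1.14, −1.15 and −1.31. Of the 4 probe sets of EDA, 1 was called. PIP5K1B fell by 1.87 (adjusted p = 0.00857). SYBU fell by 1.85 (0.0136) and lost its call without 24 h replicate 1 (0.0562). PMEL, LRRC3B, ATAD2 and SYBU were not called in the fit of the 8 arrays.

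Most lists of markers of other cell types held few calls, and their part in the results above was not tested. Endothelial markers were called in 0 of 13 (summed level 11.23 to 11.65 at 24 h and 11.56 to 11.99 after rupture), smooth muscle and pericyte markers in 0 of 8 (14.02 to 14.14 and 14.05 to 14.59), and erythrocyte markers in 0 of 8 (10.31 to 11.1 and 10.56 to 12.13). Of all probe sets, 11745 had an unadjusted p under 0.05. The lowest adjusted p in these lists were those of CDH5 (0.62, adjusted p = 0.0561), LMOD1 (−0.43, 0.298) and HBB (0.69, 0.241). AIF1 of the macrophage list stood at −0.89 (0.118) and GZMA of the lymphocyte list at −0.61 (0.2). Of 11 neutrophil markers FPR1 was called higher (1.92, 0.0189; 0.64 with 16 added), and lost its call without 24 h replicate 2 or ruptured replicate 5, 7 or 8 (up to 0.0669), at summed levels of 8.41 to 9.19 and 8.54 to 9.62. Of 8 platelet markers ITGB3 was called, and all 8 had changes above 0 (median 0.64), with summed levels of 7.75 to 8.22 and 8.41 to 8.6. Of 11 theca and stroma markers HHIP alone was called, and it fell by 1.11 (0.0101). The list's median change was −0.05, and 1 of the 3 probe sets of HHIP was called. Of 12 oocyte markers ZP4 was called higher (0.68, 0.00781), with summed levels of 9.11 to 10.65 and 9.11 to 10.15. Among 10 surface epithelium markers KRT8 (2.45, 0.0143) and KRT7 (1.79, 0.047) were called higher and KRT18 (−0.94, 0.00744) lower, at summed levels of 10.3 to 10.93 and 10.16 to 10.69. KRT7 was not called without 24 h replicate 1, 2 or 3 or ruptured replicate 6 or 8 (up to 0.146), with 64 added, with a trended, robust prior or with the RNA quality index. With 16 added the changes of KRT8 and KRT7 were 1.81 and 0.73. In the fit of the 8 arrays FPR1, ITGB3, ZP4, KRT8, KRT7 and KRT18 were not called. The called shares were 9.09% for neutrophil, 12.5% for platelet, 8.33% for oocyte and 9.09% for theca and stroma markers, against 12.9% over all genes. For surface epithelium markers the share was 30%. No detection calls were given, so which markers are absent cannot be said.

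Of 7 measured reference genes, TFRC, the transferrin receptor, rose 2.61-fold (1.38, SE 0.21, adjusted p = 0.000445), with 1 of its 2 probe sets called. HPRT1 (0.5, 0.0199) and YWHAZ (0.32, 0.0326) were also called higher. HPRT1 was not called without 24 h replicate 1 or 2 or ruptured replicate 5 or 8 (up to 0.0669), and YWHAZ without 24 h replicate 1, 2 or 3 or ruptured replicate 5, 6 or 7 (up to 0.0898). The count was 1 without 24 h replicate 1, 24 h replicate 2 or ruptured replicate 5.

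The 36 h follicles that had not ruptured gave a comparison at the same hour. Set against them, ruptured follicles differed in 5181 probe sets (9.82%), 2549 higher and 2632 lower, and in 14.1% of genes. This contrast is the test of the difference between the 24 h to 36 h change of ruptured and of unruptured follicles. It shares the ruptured arrays with the comparison above, so values are given side by side. Between unruptured 36 h and 24 h follicles limma called 2 probe sets (0.00379%), both of SERPINA3, against 3298 at an unadjusted p under 0.05. The count was 1 without 24 h replicate 1 or 2 or unruptured replicate 3 or 4, 0 without 24 h replicate 3 or 4, 4 without unruptured replicate 2 and 5 without unruptured replicate 1. It was 4 with 16 added and 0 in the fit of those 2 groups alone.

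AREG read 6.08, 9.64, 8.83 and 7.81 in unruptured follicles, near its 24 h levels, and ruptured follicles exceeded them by 4.2 (SE 0.95, adjusted p = 0.00795). LIF read 4.35, 4.16, 4.66 and 4.8 there, and the difference was 4.71 (SE 0.55, adjusted p = 4.98e-05). INHBA read 8.33, 8.63, 8.16 and 8.68 (difference 3.2, SE 0.46, adjusted p = 0.000245), and DIRAS3 5.34, 5.16, 5.24 and 5.42 (4.06, SE 0.35, adjusted p = 4.23e-06). In each of these 4 genes every unruptured follicle lay below every ruptured one. HSD3B2 read 7.99, 9.13, 8.47 and 8.25 in unruptured follicles, 3.63 below the ruptured ones (SE 0.42, adjusted p = 4.48e-05). Its difference between unruptured 36 h and 24 h follicles, −1.37, was not called (adjusted p = 0.629). SIMC1 read 11.21, 11.35, 10.98 and 11.1 and was lower in ruptured follicles by a change of −2.06 (SE 0.21, adjusted p = 1.92e-05). PDK4 read 9.01, 7.32, 8.3 and 8.72 (−2.27, SE 0.34, adjusted p = 0.000337).

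Some genes called between ruptured and 24 h follicles were not called between the 36 h groups. HHIP read 6.37, 7.49, 6.77 and 6.22 there, 0.14 above the ruptured mean on average (difference −0.14, SE 0.26, adjusted p = 0.825). PIP5K1B read 4.62, 5.66, 6.04 and 5.1 (−0.53, SE 0.43, adjusted p = 0.529), and HNRNPC, a splicing factor, differed by −0.15 (SE 0.13, adjusted p = 0.562). The mean of MCM3 was 7.53 at 24 h, 7.08 without rupture and 6.55 with it, and its difference between the 36 h groups was −0.53 (SE 0.18, adjusted p = 0.0707). A p above the threshold does not show that these levels are equal. SERPINA3, a serine protease inhibitor named after its values were seen, read 10.82, 11.1, 11.17 and 11.96 at 24 h, 9.23, 7.82, 8.19 and 9.15 in unruptured and 12.21, 11.58, 11.68 and 12.55 in ruptured follicles on its brightest probe set. The unruptured follicles were the low ones, 2.67 below 24 h (SE 0.36, adjusted p = 0.0255), while ruptured and 24 h follicles differed by 0.74 (SE 0.36, adjusted p = 0.225). On its next brightest probe set, unruptured minus 24 h was −2.64, but on the remaining ones it was 0.07, −0.03 and −0.1.

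**Figure D5:**
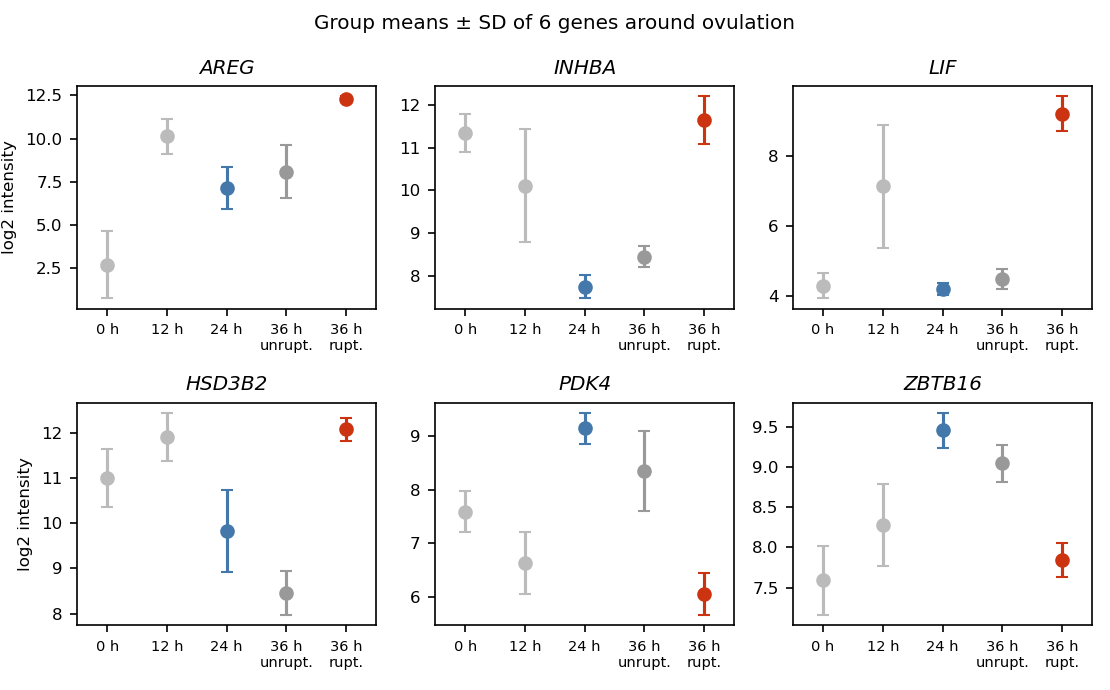
Mean log2 intensity with SD of 6 genes in the 5 groups, 6 follicles at 0 h and 4 in each other group. AREG and HSD3B2 were high at 12 h (10.13 and 11.92), lower at 24 h (7.13 and 9.83) and high again after rupture (12.3 and 12.09), while PDK4 (6.64, 9.14 and 6.06) moved the opposite way and ZBTB16 rose from 7.59 at 0 h to 9.46 at 24 h before reading 7.84 after rupture.

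For some genes the mean of the ruptured follicles lay nearer the 12 h mean than the 24 h mean, which is a description with no test, of genes chosen after their values were seen. LIF averaged 4.3 at 0 h, 7.13 at 12 h, 4.21 at 24 h and 9.2 after rupture. ADAMTS4 averaged 6.75, 10.45, 7.73 and 11.51 in the same order, and CCL2 6.41, 9.04, 6.25 and 9.25. For NOL6 the means were 6.76, 7.55, 6.14 and 7.54, and for SIMC1 10.92, 8.94, 10.98 and 9.1. Other genes followed another course. NPPC averaged 1.35, 2.6, 2.27 and 5.97, BIRC3 4.31, 5.09, 4.83 and 8.5 and SERPINB2 2.71, 3.61, 3.26 and 7.11, with only the ruptured group high. CYP17A1 averaged 12.05, 10.15, 7.82 and 7.24, lower at each step.

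Of 25 genes of transport from the endoplasmic reticulum to the Golgi, SEC24A (0.73, adjusted p = 0.000501) and SEC22B (0.49, 0.0176) rose, and SEC22B lost its call without 24 h replicate 3 or ruptured replicate 8 (up to 0.0575). Among 23 actin cytoskeleton genes MYH10, a nonmuscle myosin, fell (−1.04, 0.00622). LIMA1 rose (0.75, 0.0443) and lost its call without any replicate but ruptured replicate 8 (up to 0.133). Of 25 splicing factors and RNA helicases CLK4 (−0.62, 0.00951) and HNRNPC (−0.47, 0.0306) fell and HNRNPF (0.4, 0.0333) rose. HNRNPC was not called without 24 h replicate 1, 3 or 4 or ruptured replicate 5, 6 or 8 (up to 0.0876), and HNRNPF without any replicate but ruptured replicates 6 and 8 (up to 0.0981). Among 11 genes of antral granulosa cells INHBA was called higher and GATM lower (−1.05, 0.0193), 18.2% of the list. Its median change was 0.5, with 8 changes above 0. GATM was not called without 24 h replicate 2 or 3 or ruptured replicate 7 (up to 0.0636). In the fit of the 8 arrays SEC24A, SEC22B, MYH10, LIMA1, CLK4, HNRNPC and HNRNPF were not called. The called shares of the transport, actin and splicing lists were 8%, 8.7% and 12%, against 12.9% over all genes. Limma called 0 of 17 cadherin and tight junction genes, 0 of 7 prostaglandin genes, with CBR1 at the smallest p (−0.51, adjusted p = 0.0508), and 0 of 3 gonadotropin and prostaglandin receptors. PTGS2, LHCGR and FSHR were not analysed here.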

How the data were processed

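The authors deposited 1 table of probe set intensities from Affymetrix rhesus arrays, on a linear scale and made with RMA per the submitters' processing notes. For RMA no version was given in the sources used here, and the table holds no detection calls. Log2 was taken here, with nothing added. Of 52865 probe sets, the 99 control probe sets were left out. Of the remaining 52766, 24956 had 1 gene symbol in the platform annotation, 361 several and 27449 none. Of the 24956, 24616 were matched by gene ID to RefSeq names of assembly T2T-MMU8v2.0.

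Group means of all 22 arrays were fitted with limma 3.58.1 (R 4.3.3), which gave 17 residual degrees of freedom, and moderated with eBayes. The contrasts were two-sided, and p-values were adjusted over 52766 probe sets. On simulated data for ruptured against 24 h follicles, changes were set in 100 probe sets per size, all brighter than the median probe set. With 52766 probe sets tested, 61% of 2-fold and 94% of 4-fold changes were recovered, and 6 unchanged probe sets were called. Recovery among dimmer probe sets was not measured. The simulated noise was normal, independent between probe sets and of equal spread in all groups. In the data some spreads differed, such as that of EGR2 (SD 0.21 at 24 h and 1.51 after rupture). The simulated counts therefore need not hold for such genes.

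The rule for naming genes took the 12 highest and 12 lowest called genes with a usual symbol, no overlap between the groups and a mean above the arrays' median in 1 of them. It added up to 2 called members of each list with the largest change (where 0 were called, the member with the smallest p) and a panel of which 9 of 14 genes were measured. Any further gene in the text was picked with its values known. The members and lists were chosen with earlier results of these data known. Of 1165 listed genes in 59 lists, 830 were measured. Promoter sequences were not analysed here.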

Additional observations from a re-analysis of the deposited data

Results flagged for a closer look

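In 8 of 232 sets of 4 follicles (3.45%, where chance gives about 1 in 20), 1 follicle stood far from the rest of its group. At 24 h, KRT8 read 2.41 in replicate 4 against 5.6 to 6.11 in the others, and GSTA1 read 3.66 in replicate 1 against 5.6 to 5.68. In the ruptured group, HAS2 read 5.02 in replicate 8 against 6.51 to 6.68, and MCM5 read 6.31 in replicate 6 against 6.65 to 6.69. The other 4 lay closer. FZD7 read 9.96 in 24 h replicate 2 against 9.64 to 9.69. EIF3J read 8.19 in 24 h replicate 4 against 8.34 to 8.37. NDUFA8 read 10.09 in 24 h replicate 3 against 9.94 to 9.96. HNRNPC read 9.81 in 24 h replicate 2 against 10.06 to 10.11.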

How the results depend on the processing

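No paired analysis was possible because the 24 h follicles (replicates 1 to 4) and the ruptured ones (5 to 8) share no replicate number. In fits of 2 groups only, ruptured against 24 h gave 1271 probe sets (734 higher, 537 lower; 934 with at least a 2-fold change), ruptured against unruptured 1318 (797 higher, 521 lower) and unruptured against 24 h 0. With limma's treat against a log2 change of 0.5, the first gave 429 (337 higher, 92 lower; 427 at least 2-fold), the second 434 (345 higher, 89 lower) and the third 0. Changes of at least 2-fold numbered 1103 with 16 and 537 with 64 added to the intensities. Unruptured against 24 h gave 4 with 16 added, 4 with the brighter probe sets, 10 with a trended, robust prior and 0 with the RNA quality index. Leaving out 1 replicate gave 0 to 5 for that contrast and 1700 to 2507 probe sets lower in ruptured than in 24 h follicles. Without 1 replicate the uncalled change of MKI67 ran from −0.22 to 0.27, with −0.05 and −0.22 below 0, and that of CYP19A1 from −0.12 to 0.9; the cause was not tested. Of the 99 called named genes, 38 were called under every alternative that tested them. The filters on brightness left some of the 99 untested. The call was lost by 21 without at least 1 replicate, by 47 in the fit of 2 groups and by 56 with treat, and 0 changed sign. Low intensities and 4 follicles a group limit what can be called.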

Other observations

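Genes outside the lists, chosen after their values were seen, are given here for ruptured against 24 h follicles, with adjusted p from limma. F2RL1, a receptor cleaved and switched on by serine proteases, read 7.86, 8.35, 7.56 and 7.8 at 24 h and 11.12, 11.44, 11.27 and 11.34 after rupture, and rose by 3.4 (SE 0.42, adjusted p = 6.54e-05). PPIF, a mitochondrial cyclophilin, read 7.32, 6.74, 7.19 and 7.57 at 24 h and 11.23, 10.34, 9.92 and 10.75 after rupture, and rose by 3.35 (SE 0.29, adjusted p = 3.99e-06). In both genes the groups were far apart. TNFRSF11B, a decoy receptor for RANKL, rose by 3.14 (adjusted p = 0.00272), CH25H, a cholesterol 25-hydroxylase, by 2.7 (0.000357) and ALDH1A3, which makes retinoic acid, by 2.52 (0.000474). SIK1, a kinase induced by cyclic AMP, read 9.07, 10.49, 10.83 and 7.51 after rupture against 6.4 to 7.08 at 24 h and rose by 2.83 (adjusted p = 0.00252), and it lost its call in the fit of the 8 arrays.

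Among genes that fell, TET1, which oxidises methylated cytosine, read 6.48, 6.35, 6.69 and 6.51 at 24 h and 4.41, 5.04, 4.83 and 5.28 after rupture (−1.62, SE 0.18, adjusted p = 2.95e-05). KLF15, a factor induced by glucocorticoids, read 8.92, 9.17, 8.93 and 8.9 at 24 h and 7.65, 7.37, 7.39 and 7.92 after rupture (−1.4, SE 0.17, adjusted p = 6.68e-05). The cold-inducible RNA-binding protein CIRBP fell by 1.31 (adjusted p = 0.000207), SESN1, a stress-induced brake on mTORC1, by 1.48 (0.00021) and CCNG2, an atypical cyclin, by 1.23 (0.000838). In TET1, KLF15, CIRBP and SESN1 every ruptured follicle lay below every 24 h follicle.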
